A study of Mus musculus with 32 samples.

Results

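Clustered protocadherins are cadherin-like cell surface proteins encoded by the alpha, beta and gamma gene clusters on mouse chromosome 18. The genes were chosen by name, as those whose symbol in the table of sorted cells was Pcdha, Pcdhac, Pcdhb, Pcdhga, Pcdhgb or Pcdhgc followed by a number, and were joined by identifier to the table of tissues. This gave 57 of 22337 genes, of which 14 belonged to the alpha cluster, 22 to the beta cluster and 21 to the gamma cluster. In GRCm38, with GENCODE vM21 gene models, the alpha genes lie at chr18:36930184-37187661, the beta genes at chr18:37264938-37524479 and the gamma genes at chr18:37661793-37841873. Positions come from the annotation and not from the deposited tables.

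Each alpha or gamma gene has its own promoter and its own first exon, which encodes the extracellular and transmembrane part of the protein and is joined to constant exons shared by the whole cluster. Each beta gene is a separate short unit with no constant exons. In neurons, most of these promoters are chosen at random, so that neighbouring cells carry different combinations, and the proteins bind only the same isoform on another cell. This recognition underlies self-avoidance of dendrites. The 5 C-type members (Pcdhac1, Pcdhac2, Pcdhgc3, Pcdhgc4 and Pcdhgc5) sit at the ends of the alpha and gamma clusters and are expressed in a more uniform way, and Pcdhgc4 is known for its role in the survival of interneurons. CTCF and cohesin loop a chosen promoter to its enhancer, and DNA methylation and Smchd1 keep other promoters silent.

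RNA-seq was performed on 32 samples, each from 1 male mouse aged 6 months on a C57BL/6J background. The hippocampus came from 4 WT mice, 4 5xFAD mice without light and 4 with light. The meninges and sorted meningeal lymphatic endothelial cells (LECs) each came from 4, 3 and 3 mice of these groups. 5xFAD mice are a transgenic model of amyloid deposition, with transgenes driven by neuronal Thy1 sequences. Light treatment was repeated near-infrared illumination through the skull under isoflurane, while the mice of the control arm were anaesthetised and handled in the same way under room light. LECs had been gated as live CD45-CD31+PDPN+ cells from the meninges of a single mouse. Reads were counted by the authors as RSEM expected counts and as FPKM, that is fragments scaled to transcript length and sequencing depth, and levels are given in FPKM unless counts or CPM are named.

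Total expected counts were between 13952825 and 23856476 in the hippocampus, 6601143 and 14708202 in the meninges, and 14231415 and 24207326 in LECs. Between 16371 and 18264 genes were above 0 in a hippocampal sample, against 5998 to 9020 genes in a LEC library. The meninges also held RNA of neighbouring tissues, since the summed FPKM of 6 choroid plexus markers was between 15792 and 49661 and that of 4 pineal markers between 74.0 and 697. All LEC libraries carried the endothelial markers Pecam1 (189 to 398 FPKM) and Cdh5 (46.6 to 89.8 FPKM), which are among 6 blood endothelium markers listed. Cldn5 (159 to 2048 FPKM), Flt1 (102 to 217 FPKM), Slco1a4 (51.0 to 571 FPKM) and Abcb1a (20.7 to 172 FPKM) of that list were also in all 10. Cldn5, Slco1a4 and Abcb1a were highest in WT replicate 2. The lymphatic receptor Flt4 was at 3.83 to 81.6 FPKM, whereas Prox1 and Pdpn reached 1 FPKM in only 5 of 10 libraries each. The library labelled WT replicate 2 had Prox1, Lyve1 and Pdpn at 0, Mmrn1 at 0.060 and Ccl21a at 3.54 FPKM, and WT replicate 4 had Lyve1, Pdpn and Ccl21a at 0 with Prox1 at 5.71 FPKM. Untreated 5xFAD replicate 2 had Prox1 and Pdpn at 0, untreated replicate 4 had Pdpn at 0 and light-treated replicate 3 had it at 0.04 FPKM. Markers of other cells were present. Of 8 neuronal markers, Stmn2 reached 1 FPKM in 4 libraries (up to 39.2 FPKM), Map2 in 2, and Tubb3 and Slc17a7 in 1 each. Snap25 and Syt1 were at most 0.06 and 0.23 FPKM, and Rbfox3 and Gad1 were at 0 throughout. Of 5 astrocyte markers, Gja1 was at 96.2 to 444 FPKM in all 10 libraries, Slc1a3 reached 1 FPKM in 2 and Aldh1l1 in 1. Gfap was at most 0.02 FPKM and Aqp4 was at 0. Of 5 leukocyte markers, Ptprc, which encodes CD45, Cd3e and S100a9 were at 0 in all 10 LEC libraries, while Cd74 reached 1 FPKM in 8 (up to 1507 FPKM) and Cd79a in 4. Of 8 fibroblast markers, Dcn reached 1 FPKM in 9 libraries (up to 612 FPKM), Foxc1 in 5, and Col1a2 and Igf2 in 3 each. Col1a1 was at most 0.29 FPKM, and Lum, Slc6a13 and Pdgfra were at 0 throughout. Of 5 mural cell markers, Rgs5 reached 1 FPKM in 7 libraries (up to 449 FPKM, in WT replicate 4), Kcnj8 in 6, Acta2 in 4 (up to 377 FPKM), Myh11 in 2 and Pdgfrb in 1. WT replicate 2 held Ttr at 563, Mbp at 255 and P2ry12 at 42.5 FPKM. Other choroid plexus, oligodendrocyte and microglial markers listed were there at 5.34 FPKM or less. Their part in the LEC results was not tested. In bulk RNA, fewer cells of a type and less RNA per cell cannot be told apart, and this holds for every difference described below.

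The gamma cluster held most of the clustered protocadherin signal of the hippocampus. Its summed FPKM was 150 ± 15.5 (SD, n = 12), against 38.5 ± 6.17 for the beta cluster and 26.8 ± 2.69 for the alpha cluster, which made 69.7%, 17.8% and 12.5% of the total on average. The 5 C-type members alone made 47.4% ± 2.28 of it. Of the 57 genes, 56 had at least 10 counts in each of the 12 hippocampal samples. The exception was Pcdhb1, which was between 0 and 0.15 FPKM. The heat map of all members shows this order in every group of mice.

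**Figure D1:**
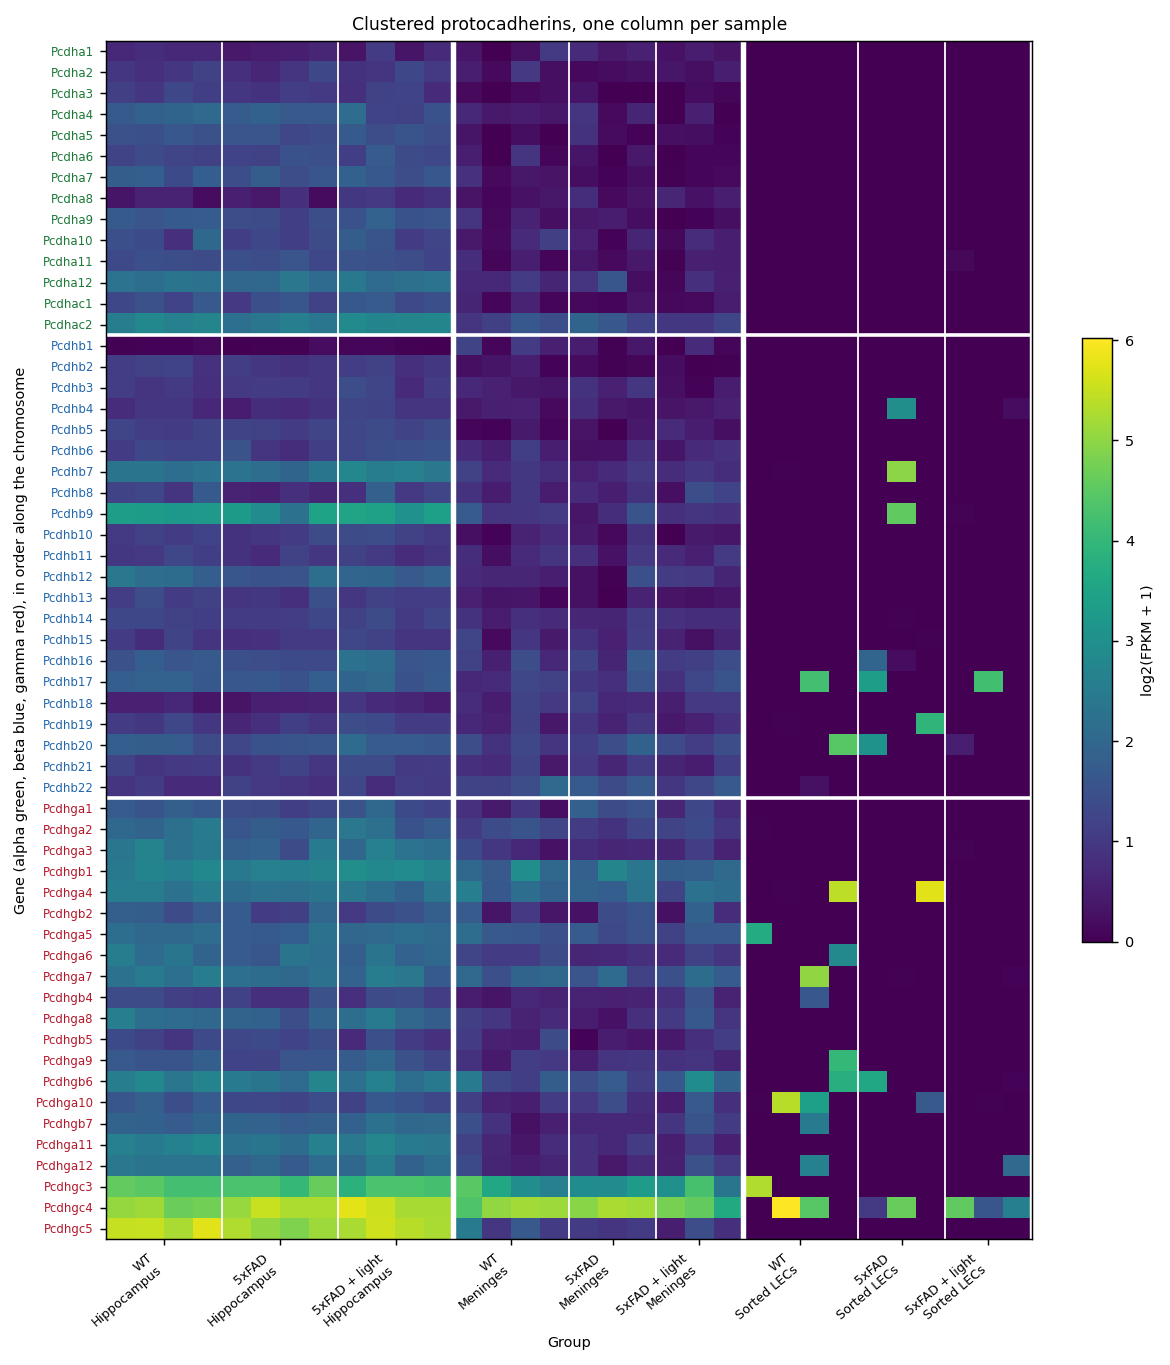
Level of the 57 clustered protocadherins (rows, in chromosome order) in the 32 samples (columns, by tissue and group), as log2(FPKM + 1). The hippocampus expressed nearly all members with Pcdhgc3, Pcdhgc4 and Pcdhgc5 highest, the meninges were low for the alpha cluster, and LEC libraries showed a few isolated beta and gamma members over a field of zeros.

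Pcdhgc5 was the most abundant member of the hippocampus, with a mean of 39.5 ± 6.90 FPKM (SD, n = 12). It was followed by Pcdhgc4 at 36.9 ± 8.18 FPKM, a difference within the spread between samples, and by Pcdhgc3 at 18.7 ± 2.84 FPKM, which was apart from both. Pcdhb9 was the highest beta gene at 8.47 ± 1.88 FPKM and the next, Pcdhb7, was at 4.14 ± 0.819 FPKM. Pcdhac2 led the alpha cluster at 5.15 ± 0.819 FPKM, ahead of Pcdha12 at 3.68 ± 0.452 FPKM, whereas the other alpha C-type, Pcdhac1, was at 1.72 ± 0.418 FPKM. From the fifth place (Pcdhgb1, 5.48 ± 0.757 FPKM) to the tenth (Pcdhga4, 3.96 ± 0.651 FPKM), each member differed from the next by less than the spread between samples. Pcdha1 (0.542 ± 0.232 FPKM), Pcdha8 (0.549 ± 0.301 FPKM) and Pcdhb18 (0.501 ± 0.178 FPKM) were, after Pcdhb1, the lowest.

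The shared exons bear on how these levels can be read. The constant exons make 2860 bases of the longest alpha transcripts and 2119 bases of the longest gamma transcripts, while no beta gene shares any. Expected counts were not whole numbers in 100% of the alpha values above 0 and in 98.4% of the gamma values of the hippocampus, against 14.9% of the beta values and 16.2% of all genes, so reads had been divided between members. The transcript length implied by count, FPKM and library total was within 0.933 to 1.02 times the annotated length for 49 of the 54 members with a level of at least 1 FPKM in some hippocampal sample. Pcdhgc4 was the clearest exception. Its implied length was 2410 to 2643 bases in the hippocampus and 2340 to 2582 bases in the meninges, against 5024 bases for its full transcript and 2272 bases for a short annotated transcript that holds all 2119 shared bases and 153 of its own. The Pcdhgc4 level in both tissues therefore rested largely on reads of exons common to the gamma cluster. For Pcdhgc5 the implied length was 3888 to 4563 bases in the hippocampus, and for Pcdhgc3 it was 4626 to 4822 bases.

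The meninges expressed the clustered protocadherins at a lower level than the hippocampus, and the alpha cluster was lowest of all. In WT mice the alpha sum was 6.15 ± 2.47 FPKM (SD, n = 4) in the meninges and 28.0 ± 1.91 FPKM in the hippocampus, a 4.55-fold difference. The beta sum was 15.9 ± 4.85 against 39.3 ± 1.76 FPKM (2.48-fold), and the gamma sum was 69.6 ± 8.48 against 155 ± 13.5 FPKM (2.23-fold). In none of the 3 clusters did the samples of the tissues overlap. The alpha share of the summed FPKM was 6.38% ± 2.21 over the 10 meningeal samples, compared with 12.5% ± 1.04 over the hippocampal samples.

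These differences were tested per gene with edgeR's quasi-likelihood test, and a gene was called at a Benjamini-Hochberg adjusted p below 0.05 with a change of at least 2-fold. Genes had to reach 1 FPKM in at least 3 samples of the fit, which 53 of the 57 members did. In WT mice 37 of 53 tested members were called lower and 1 was called higher in the meninges. Of all 15132 genes tested, 51.4% were called, 21.3% as lower and 30.1% as higher. Many of these genes passed the level filter through the hippocampus only, so that a lower meningeal value had to follow and their counts and medians support nothing. This holds for 11 of the 12 tested alpha genes. Among the 27 members that passed on the meningeal samples alone, 15 were called lower and 1 higher, with a median log2 fold change of -1.23 beside 0.12 for all genes. These were 1 of 1 alpha gene (Pcdhac2) called lower, 4 of 8 beta genes called lower with 1 higher (median -1.07), and 10 of 18 gamma genes called lower (median -1.28). Pcdhb18, one of these beta genes, had failed the filter in the hippocampus, so that a higher meningeal value had to follow.

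In untreated 5xFAD mice 31 of 53 members were called lower and 1 higher, or 13 and 1 of the 27 that passed on the meninges alone, while 45.9% of all genes were called, 20.5% as lower and 25.4% as higher. In light-treated 5xFAD mice 38 were called lower and none higher, or 16 and none of the 27, while 47.7% of all genes were called, 21.6% as lower and 26% as higher. These 3 tissue comparisons have no sample in common. Pcdhb8, Pcdhb11, Pcdhb18, Pcdhb20, Pcdhga4, Pcdhga5, Pcdhga7 and Pcdhgb2 were called in none.

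**Figure D2:**
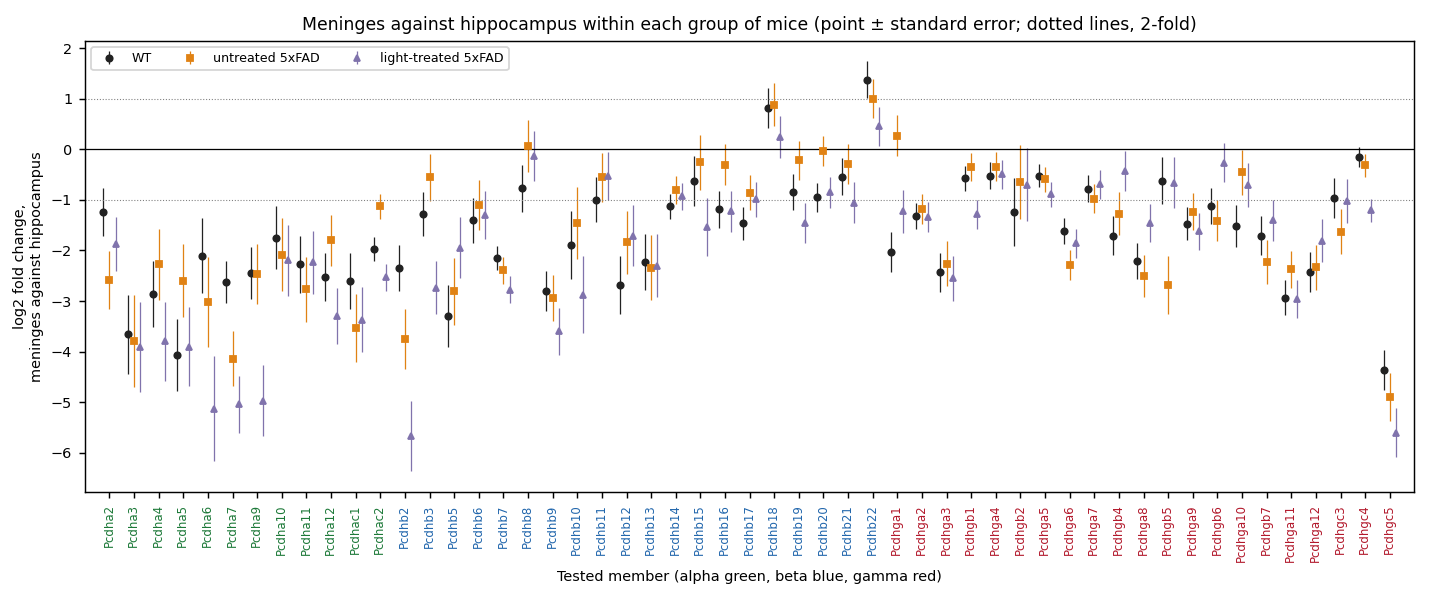
Log2 fold change of the 53 tested members in the meninges against the hippocampus, with its standard error, within each of the 3 groups of mice. All tested alpha genes lay below 0, but all except Pcdhac2 had passed the level filter through the hippocampus only, so that this had to follow. Pcdhgc5 was the lowest gamma gene, and Pcdhb18 and Pcdhb22 lay above 0 in all 3 groups. Pcdhb18 had passed the filter through the meninges only, so that its direction had to follow too.

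The largest change of a gamma gene was that of the C-type Pcdhgc5 (ENSMUSG00000102543, chr18:37819513-37841873). It measured 43.7, 45.0, 37.3 and 52.9 FPKM in the WT hippocampus and 4.61, 0.95, 2.20 and 1.10 FPKM in the WT meninges. Every hippocampal value was above every meningeal value, and the log2 fold change was -4.36 ± 0.40 (SE, adjusted p = 5.81e-09). Pcdhga11 and Pcdhga3 followed with log2 fold changes of -2.93 ± 0.34 and -2.44 ± 0.39, and Pcdhga3 had failed the level filter in the meninges.

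The other gamma C-types were closer between the tissues. Pcdhgc4 (ENSMUSG00000023036) measured 32.8, 34.6, 24.2 and 25.7 FPKM in the WT hippocampus and 19.4, 32.03, 35.6 and 34.3 FPKM in the WT meninges. The values overlapped, with a log2 fold change of -0.15 ± 0.21 (adjusted p = 0.521). Pcdhgc3 (ENSMUSG00000102918) measured 22.6, 21.2, 17.5 and 17.7 FPKM in the hippocampus and 21.3, 11.2, 6.77 and 5.11 FPKM in the meninges. Its log2 fold change of -0.97 ± 0.40 had an adjusted p of 0.0332 and was short of 2-fold, and the values overlapped through meninges replicate 1, the sample of 21.3 FPKM. Without that replicate the change was -1.58 (adjusted p = 0.000667) and was called. As a result Pcdhgc4 and Pcdhgc3 were the most abundant members of the meninges, at 28.5 ± 8.33 and 9.57 ± 5.75 FPKM (SD, n = 10), and were followed by Pcdhgb1 at 3.58 ± 1.51 FPKM. Pcdhgc5 stood at 1.48 ± 1.21 FPKM there.

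In the alpha cluster, the largest fitted WT changes were those of Pcdha5, Pcdha3 and Pcdha4, genes that failed the filter in the meninges and lay between 0 and 0.62 FPKM in the WT meninges, so that their order is one against very low values. Pcdha5 fell from 1.81, 1.78, 2.12 and 1.80 FPKM in the hippocampus to 0.26, 0, 0.16 and 0 FPKM in the meninges (log2 fold change -4.06 ± 0.71, adjusted p = 3.57e-05). Pcdha3 and Pcdha4 changed by -3.66 ± 0.78 and -2.86 ± 0.64 on the log2 scale. Even the most abundant alpha gene, Pcdhac2 (ENSMUSG00000102697), was 4.81, 5.98, 5.12 and 5.65 FPKM in the hippocampus but 0.87, 1.19, 2.13 and 1.73 FPKM in the meninges, without overlap and with a log2 fold change of -1.97 ± 0.23 (adjusted p = 2.21e-07). Pcdhac1 changed by -2.60 ± 0.55. Pcdhac2 was the only alpha gene to reach 1 FPKM in at least 3 of the 10 meningeal samples.

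Beta genes were the most mixed. Pcdhb9, the leading beta gene of the hippocampus, measured 9.21, 9.05, 8.30 and 8.60 FPKM there and 2.32, 0.89, 0.94 and 1.02 FPKM in the WT meninges (log2 fold change -2.81 ± 0.40, adjusted p = 2.51e-06). Pcdhb5 and Pcdhb12 changed by -3.29 ± 0.61 and -2.68 ± 0.57, and Pcdhb5 had failed the level filter in the meninges. Pcdhb22 went the other way, with 0.88, 1.08, 0.65 and 0.64 FPKM in the hippocampus and 1.34, 1.25, 1.68 and 3.14 FPKM in the meninges. Its values did not overlap either (log2 fold change 1.38 ± 0.37, adjusted p = 0.00222), and it was the leading beta gene of the meninges at 1.81 ± 0.651 FPKM (SD, n = 10), followed by Pcdhb20 at 1.498 ± 0.537 FPKM. Without WT meninges replicate 4 the change of Pcdhb22 was 0.99 and short of 2-fold. Its implied transcript length was under 90% of the annotated length in both tissues. Pcdhb1 was below the level filter but reached 1.35 and 1.11 FPKM in 2 of the 4 WT meninges, above its highest hippocampal value of 0.15 FPKM.

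Neuronal markers moved with these differences. All 8 of 8 neuronal markers were called lower in the WT meninges, with a median log2 fold change of -3.12, and their summed FPKM was 211 to 581 against 2281 to 2516 in the WT hippocampus. The markers of leptomeningeal fibroblasts went the opposite way, with 7 of 8 called higher and a median of 5.68. Foxc1 among them passed the level filter through the meninges only. Over all genes tested, 21.3% were called lower and 30.1% higher. The part of cell composition in the protocadherin differences was not tested.

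Related genes were compared in the same way, where 21.3% of all genes were called lower and 30.1% higher. Of 11 tested non-clustered protocadherins, which lack the cluster organisation, 7 were called lower and 1 higher in the WT meninges, with a median log2 fold change of -2.33. Pcdh8, Pcdh15 and Pcdh20 failed the level filter in the meninges and Pcdh18 failed it in the hippocampus, so the direction of each had to follow. What rests on them in this count and median supports nothing. Pcdh20 and Pcdh8 changed by -5.48 ± 0.61 and -5.06 ± 0.62, and Pcdh18 by 2.17 ± 0.45. Of 17 tested regulators of promoter choice, 1 was called higher and 1 lower, with a median of 0.25. These were the cohesin loader Nipbl (1.15 ± 0.20) and the zinc finger protein Wiz (-1.29 ± 0.19). Smchd1, the silencing factor named above, was at 0.85 ± 0.19 and short of 2-fold. Of 19 tested intracellular partners and signalling genes, 9 were called lower and 2 higher, with a median of -0.89. Among them were Wasf1 (-5.59 ± 0.42), a subunit of the WAVE complex that clustered protocadherins can recruit, and Ptk2b (-5.29 ± 0.38), a kinase inhibited by their constant domains.

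LEC libraries showed a pattern of a different kind. The alpha cluster was practically absent, with 2 counts in all over 10 libraries and 12 of 14 genes at 0 throughout. Of the 57 members, 30 had no count in any LEC library. The remaining signal came from few beta and gamma genes, each with many counts in some libraries and at or near 0 in the others. At a minimum of 10 counts, a LEC library contained between 2 and 8 members, and 20 members were found in at least 1 library.

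**Figure D3:**
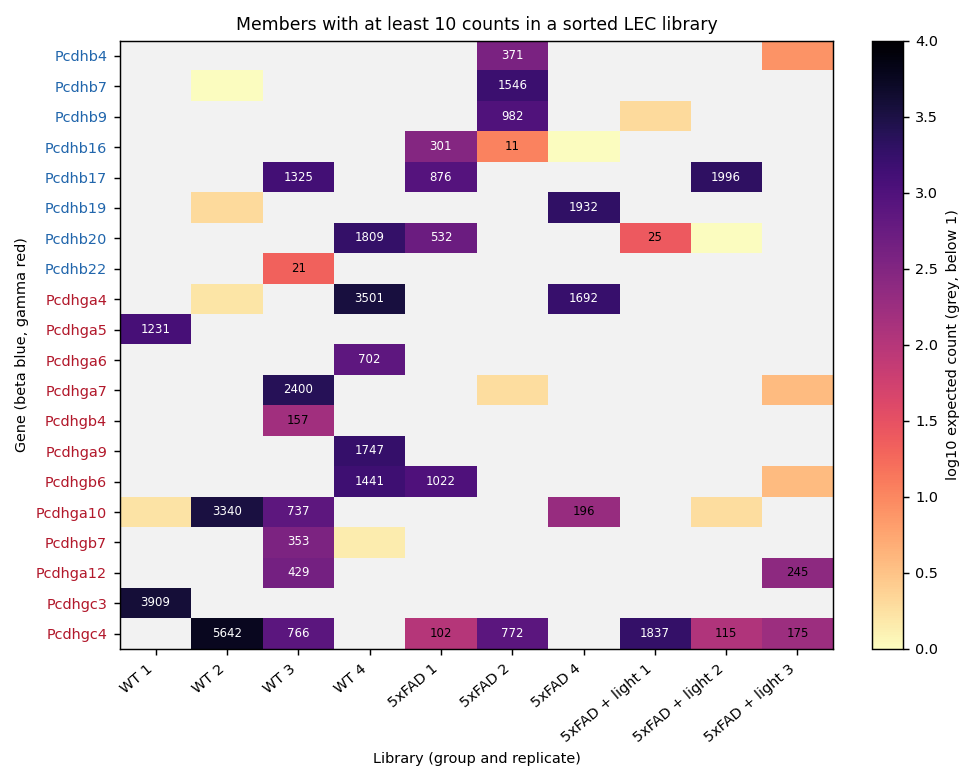
Expected counts of the 20 members with at least 10 counts in some LEC library (rows) in the 10 libraries (columns, by group and replicate). The colour gives log10 of the count, grey marks values below 1, and counts of 10 or more are printed. Most members stand in 1 library, and Pcdhgc4 stands in 7.

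The combinations differed from library to library. WT replicate 1 held 3909 counts of Pcdhgc3 and 1231 of Pcdhga5, and no other member reached 10 counts. WT replicate 2 held 5642 counts of Pcdhgc4 and 3340 of Pcdhga10. WT replicate 3 had the most members, led by Pcdhga7 (2400 counts), Pcdhb17 (1325), Pcdhgc4 (766) and Pcdhga10 (737). WT replicate 4 held Pcdhga4 (3501), Pcdhb20 (1809), Pcdhga9 (1747), Pcdhgb6 (1441) and Pcdhga6 (702). Thus no member was found in all 4 WT libraries, and Pcdhgc3, an abundant gene of the whole meninges, was at 0 FPKM in 3 of them.

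Untreated 5xFAD replicate 1 contained Pcdhgb6 (1022 counts), Pcdhb17 (876), Pcdhb20 (532), Pcdhb16 (301) and Pcdhgc4 (102). Replicate 2 contained Pcdhb7 (1546), Pcdhb9 (982), Pcdhgc4 (772) and Pcdhb4 (371), and replicate 4 contained Pcdhb19 (1932), Pcdhga4 (1692) and Pcdhga10 (196). The 3 light-treated libraries held 2 members each. These were Pcdhgc4 (1837) with Pcdhb20 (25) in replicate 1, Pcdhb17 (1996) with Pcdhgc4 (115) in replicate 2, and Pcdhga12 (245) with Pcdhgc4 (175) in replicate 3. Of the 45 pairs of libraries, 19 had no member in common and none had more than 2.

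Most genes of the LEC libraries were shared more widely. Of the 20 members found, 12 (60%) were in exactly 1 library and 4 (20%) in at least 3. Of the 11727 genes found at the same minimum, 14.5% were in exactly 1 library and 75.8% in at least 3. Restricting both to genes with at least 100 counts in some library gave 11 of 19 members (57.9%) against 10.1% of 10823 genes in exactly 1 library. Among 12 non-clustered protocadherins, 6 were found, 4 of these in at least 5 libraries, and Pcdh7 was between 1.98 and 58.6 FPKM in all 10. Per the study's methods sorted cells were lysed and their cDNA amplified, the number of cells in each is not given in the sources used here, and molecules were not tagged, so a high count need not stand for many RNA molecules. The part of cell number and amplification in this pattern was not tested.

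Pcdhgc4 was found in 7 LEC libraries, more than any other member. In 3 of these (WT replicate 2, untreated replicate 1 and light-treated replicate 1) its implied transcript length was 4929 to 5100 bases, close to the full 5024 bases. In the other 4 it was 2297 to 2320 bases, close to the short transcript, as in the tissues. The Pcdhgc4 counts of these 4 therefore rested largely on reads of exons common to the gamma cluster. Pcdhga4 also had short implied lengths, of 3480 bases in WT replicate 4 and 1710 bases in untreated replicate 4, against 4727 annotated. Pcdhb17, Pcdhb20 and Pcdhga10 were found in 3 libraries each.

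The 57 members together took 239, 518, 386 and 383 CPM (counts scaled to the library total) in the WT libraries. In the untreated 5xFAD libraries they took 144, 259 and 205 CPM, and in the light-treated libraries 112, 87.3 and 28.9. WT values lay above all light-treated values, and WT overlapped with untreated 5xFAD through WT replicate 1. Since each total rested on 2 to 8 genes that differed between libraries, it is given as a description without a test. Lymphatic markers differed as well, with summed FPKM of 38.0 to 6736 in WT, 1155 to 4490 in untreated 5xFAD and 3079 to 9718 in light-treated libraries, and their part in the totals was not tested.

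Only Pcdhb17, Pcdhga10 and Pcdhgc4 passed the level filter in LECs and none was called in any of the 3 comparisons. Over 8188 genes tested, 0%, 0% and 0.0122% were called for untreated 5xFAD against WT, light-treated against untreated 5xFAD and light-treated 5xFAD against WT. At an unadjusted p below 0.05 there were 0, 0 and 1 of 3 members, against 3.81%, 4.01% and 6.72% of all genes, and the single gene was Pcdhga10 in light-treated 5xFAD against WT (unadjusted p = 0.0389, adjusted p = 0.740 with edgeR). It had 3340 and 737 counts in WT replicates 2 and 3, 196 counts in untreated replicate 4 and under 2 counts in each of the other libraries, so no fold change is given. DESeq2 called it (adjusted p = 0.00968). The biological coefficient of variation of the LEC fit was 1.89, against 0.198 for the hippocampus and 0.350 for the meninges, so differences of many fold could not be resolved.

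The question of how the clusters respond to amyloid and to light was addressed first in the hippocampus. No member was called in untreated 5xFAD against WT, in light-treated against untreated 5xFAD or in light-treated 5xFAD against WT, where 4.28%, 0.27% and 2.36% of 12981 genes were called. DESeq2 and limma on log2(FPKM + 1) also called none. All 52 tested members had edgeR estimates, made from counts, within 2-fold in each comparison. In FPKM, Pcdhb8 differed more, at 0.88 to 2.27 in WT, 0.45 to 0.75 in untreated and 0.77 to 2.60 in light-treated mice. Its means were 1.48, 0.573 and 1.44 FPKM. The implied transcript length of Pcdhb8 was 1739 to 2892 bases against 3334 annotated, and its part in this was not tested. At an unadjusted p below 0.05 in edgeR, there were 13, 10 and 4 of 52 members, against 24%, 18.3% and 16.7% of all genes.

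Within these limits, most members had a somewhat lower value in untreated 5xFAD mice. The value was lower than in WT for 44 of 52 members, with a median log2 fold change of -0.25 beside 0.01 for all genes. By cluster these were 10 of 12 alpha, 16 of 19 beta and 18 of 21 gamma genes. Against untreated 5xFAD, light-treated mice had a higher value for 44 of 52 members, including 19 of 19 beta genes, 10 of 12 alpha and 15 of 21 gamma genes, with a median of 0.23 beside -0.02. Both comparisons use the same 4 untreated 5xFAD mice, so they are not independent. Leaving out each sample gave 40 to 45 members lower in the first comparison (median -0.32 to -0.19). In the second it gave 39 to 47 members higher (median 0.17 to 0.31). Light-treated mice against WT gave 25 members higher and 27 lower, with a median of -0.02 beside 0.00 for all genes.

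**Figure D4:**
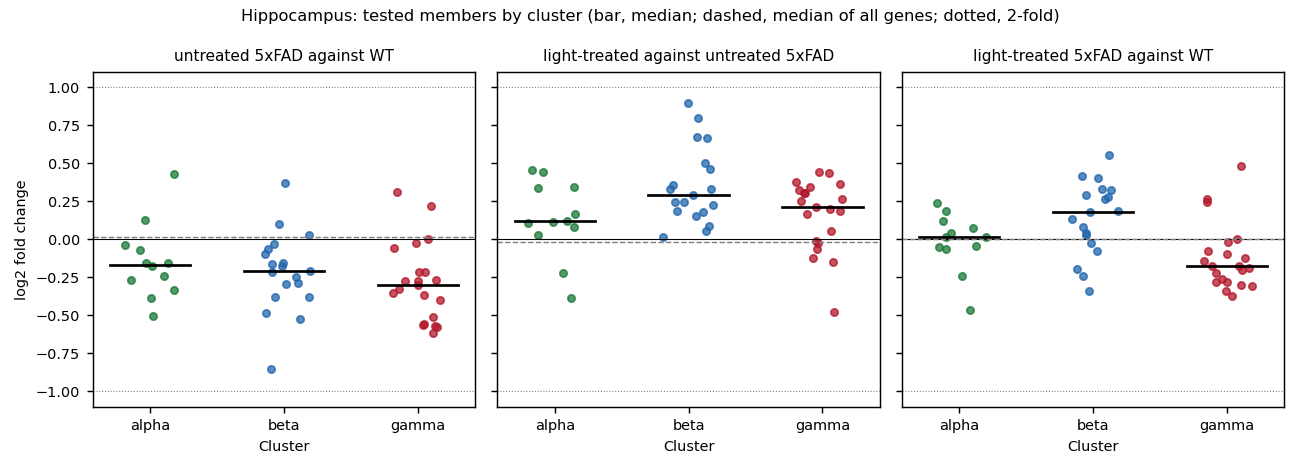
Log2 fold changes of the 52 members tested in the hippocampus, by cluster, for the 3 comparisons of mice. Points are genes, solid bars are cluster medians, and the dashed line is the median of all genes. Most points lie below 0 in untreated 5xFAD against WT and above 0 in light-treated against untreated 5xFAD, all within the 2-fold lines.

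The summed FPKM showed the same small sizes. The alpha sum was 28.0 ± 1.91 in WT, 24.2 ± 1.62 in untreated and 28.2 ± 2.59 in light-treated 5xFAD hippocampus (SD, n = 4 each). Every untreated mouse (22.1 to 26.0) was below every WT mouse (26.5 to 30.6), and the untreated and light-treated mice overlapped. The beta sum was 39.3 ± 1.76, 33.1 ± 5.07 and 43.3 ± 6.34 FPKM and the gamma sum 155 ± 13.5, 139 ± 13.0 and 157 ± 16.6 FPKM, with overlapping samples between any 2 groups.

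In untreated 5xFAD against WT, the smallest p-values belonged to Pcdhgc5, Pcdhga12 and Pcdha9. Pcdhgc5 was 38.8, 31.7, 27.7 and 34.2 FPKM in untreated 5xFAD mice against the 37.3 to 52.9 FPKM of WT given above (log2 fold change -0.40 ± 0.12, adjusted p = 0.0621 with edgeR). Only 1 untreated value reached into the WT range. Pcdhga12 was 4.28, 4.00, 3.88 and 3.87 FPKM in WT and 2.58, 3.01, 2.27 and 3.31 FPKM in untreated 5xFAD (-0.51 ± 0.16, adjusted p = 0.0671). Pcdha9 was 2.26, 1.98, 2.25 and 2.36 FPKM in WT and 1.66, 1.63, 1.17 and 1.72 FPKM in untreated 5xFAD (-0.51 ± 0.16, adjusted p = 0.0699). For Pcdhga12 and Pcdha9 the groups did not overlap, yet neither passed the test. Since these genes were picked by smallest p, such separation was largely fixed by the choice. How many of all genes separated was not counted, which holds for the comparisons of mice below too.

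In light-treated against untreated 5xFAD, the smallest p-values were those of Pcdhb16, Pcdhac2 and Pcdhb7. Pcdhb16 was 1.76, 1.70, 1.55 and 1.52 FPKM without light and 3.78, 3.45, 2.02 and 2.18 FPKM with light (log2 fold change 0.80 ± 0.19, adjusted p = 0.0777 with edgeR). Pcdhac2 was 3.62, 4.17, 5.00 and 4.18 FPKM without and 6.23, 5.54, 5.71 and 5.80 FPKM with light (0.46 ± 0.11, adjusted p = 0.0795). Pcdhb7 was 3.90, 3.41, 2.85 and 4.02 FPKM without and 5.88, 4.88, 5.13 and 4.26 FPKM with light (0.50 ± 0.14, adjusted p = 0.102). For each of these 3 genes the lowest value with light exceeded the highest value without it, a separation that the choice by smallest p favours. None of the 3 passed the test over all genes.

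In light-treated 5xFAD against WT, Pcdhgc4 had the smallest p-value. It was 53.2, 46.2, 36.5 and 36.5 FPKM in light-treated mice, all above the WT values of 24.2 to 34.6 FPKM (log2 fold change 0.48 ± 0.14, adjusted p = 0.0784 with edgeR). The untreated mice, at 32.9, 44.4, 37.8 and 38.0 FPKM, overlapped with both. As stated above, this level rested largely on exons common to the gamma cluster. Pcdhb7 (0.40 ± 0.13, adjusted p = 0.139) and Pcdhb16 (0.42 ± 0.19, adjusted p = 0.289) came next. Of the other C-types none was called. Pcdhac2 was lower in untreated 5xFAD (3.62 to 5.00 FPKM) than in WT (4.81 to 5.98 FPKM), with overlap. Pcdhac1 was 0.99 to 2.03 FPKM in untreated 5xFAD and 1.31 to 2.21 FPKM in WT. Pcdhgc3 was at -0.03 ± 0.15 in untreated 5xFAD against WT and -0.15 ± 0.15 in light-treated against untreated 5xFAD.

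Markers of other cells also differed between these groups. In light-treated against untreated 5xFAD hippocampus, 7 of 7 tested markers of leptomeningeal fibroblasts and 6 of 6 of choroid plexus had a lower value, with medians of -1.34 and -2.43. The summed FPKM of the choroid plexus markers was 36.8 to 2824 in WT, 208 to 3219 in untreated and 64.5 to 246 in light-treated mice. That of the fibroblast markers was 37.8 to 69.2, 44.3 to 121 and 18.9 to 33.6. Of 8 neuronal markers, 8 had a lower value in untreated 5xFAD than in WT (median -0.18), and 3 had a higher value with light (median -0.05). Some markers of glia, leukocytes and fibroblasts were called higher in untreated 5xFAD than in WT, where 4.28% of all genes were called in either direction. Of 4 microglial markers 2 were called higher (median 0.97), of 3 leukocyte markers 2 (median 2.40), of 7 fibroblast markers 2 (median 1.01) and of 5 astrocyte markers 1 (median 0.49). The part of all these markers in the small shifts of the protocadherins was not tested.

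In the meninges, 27 members could be tested and none was called in any of the 3 comparisons of mice, where 0%, 0.014% and 0.014% of 14318 genes were called by edgeR. DESeq2 and limma on log2(FPKM + 1) also called none. At an unadjusted p below 0.05 there were 3, 3 and 1 of 27 members, against 4.01%, 12.7% and 16.4% of all genes. The signs were mixed. In untreated 5xFAD against WT 12 members had a higher and 15 a lower value (median -0.06), and in light-treated against untreated 5xFAD 11 had a higher and 16 a lower value (median -0.08). Light-treated 5xFAD against WT gave 11 higher and 16 lower (median -0.15). All 3 medians changed sign when single samples were left out, with ranges of -0.26 to 0.08, -0.26 to 0.16 and -0.31 to 0.05 in this order. The highest values arose without WT replicate 1 in the first and without light-treated replicate 1 in the others.

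The alpha sum of the meninges was 6.43 ± 2.14 FPKM in untreated and 3.95 ± 1.21 FPKM in light-treated 5xFAD mice (SD, n = 3 each), beside the 6.15 ± 2.47 FPKM of WT. The light-treated values of 2.55 to 4.67 FPKM lay below the untreated values of 4.78 to 8.85 FPKM, by a margin far smaller than either SD. The beta sums were 17.0 ± 7.15 and 15.5 ± 3.29 FPKM, and the gamma sums 66.4 ± 6.59 and 58.0 ± 21.6 FPKM, with overlapping samples. Without Pcdhgc4 the mean gamma sums were 32.2 FPKM in untreated and 37.6 FPKM in light-treated mice. The reversed order rested on light-treated replicate 2 at 59.2 FPKM, since the other light-treated mice were at 24.9 and 28.9 FPKM and the untreated mice at 28.8, 33.1 and 34.7 FPKM.

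Pcdhga1 (ENSMUSG00000103144) had the smallest p-value in untreated 5xFAD against WT meninges. It was 0.82, 0.36, 0.95 and 0.19 FPKM in WT and 2.58, 1.63 and 1.92 FPKM in untreated 5xFAD mice, without overlap (log2 fold change 1.76 ± 0.54, adjusted p = 0.987 with edgeR). Light-treated mice were at 0.56, 1.46 and 0.69 FPKM, below every untreated mouse. Pcdhgb5 was 1.07, 0.46, 0.42 and 1.64 FPKM in WT and 0.05, 0.38 and 0.28 FPKM in untreated 5xFAD (-1.87 ± 0.75), and Pcdhga6 was 1.39, 1.07, 1.06 and 1.65 against 0.57, 0.59 and 0.77 FPKM (-0.997 ± 0.401). Both also had an adjusted p of 0.987, and most of these levels were near or under 1 FPKM.

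In light-treated against untreated 5xFAD meninges, Pcdhga8 had the smallest p-value, with 0.38, 0.23 and 0.77 FPKM without light and 1.02, 2.17 and 0.86 FPKM with light (log2 fold change 1.503 ± 0.566, adjusted p = 0.329 with edgeR). Pcdhgc4 had the next, with 30.0, 37.4 and 35.1 FPKM without and 26.4, 23.0 and 11.6 FPKM with light (-0.70 ± 0.29, adjusted p = 0.353), and Pcdhac2 changed by -0.93 ± 0.41 (adjusted p = 0.379). For Pcdhga8 and Pcdhgc4 the groups did not overlap, which the choice by smallest p favours, and for Pcdhac2 they did. In light-treated 5xFAD against WT the smallest p was that of Pcdhgc5 (-1.30 ± 0.59, adjusted p = 0.297).

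The study lists Pcdhgb5, Pcdhgb6, Pcdhgb7 and Pcdhga8 as adhesion genes raised by light, on DESeq2 p-values that were one-sided and not adjusted. That list is drawn from these same meningeal samples, so their direction is not independent evidence. Here the unadjusted edgeR p-values were 0.0195 for Pcdhga8, 0.0579 for Pcdhgb5, 0.0570 for Pcdhgb6 and 0.109 for Pcdhgb7. Pcdhgb6 was 1.71, 2.34 and 1.17 FPKM without and 2.12, 6.55 and 2.79 FPKM with light (1.09 ± 0.52, adjusted p = 0.404 with edgeR), and it was 4.71, 1.45, 1.17 and 2.41 FPKM in WT. Pcdhgb7 was 0.58, 0.63 and 0.58 against 0.91, 1.94 and 1.06 FPKM (1.10 ± 0.64, adjusted p = 0.476). Pcdhgb5 was at 0.33, 0.77 and 1.15 FPKM with light (1.60 ± 0.77 against the untreated values above, adjusted p = 0.405). Pcdhga8, Pcdhgb6 and Pcdhgb7 had the highest level of their group in light-treated replicate 2, and so did Pcdhgc3 (18.2 against 7.15 and 4.02 FPKM).

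**Figure D5:**
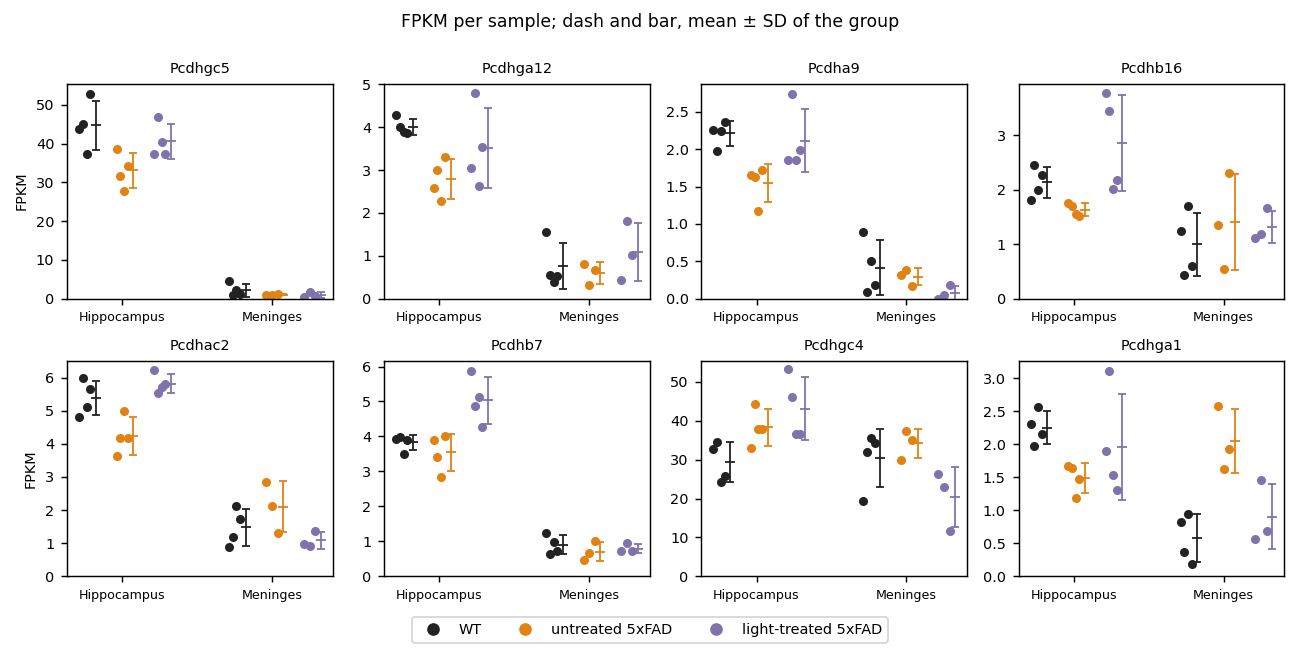
FPKM of 8 named members in each hippocampal and meningeal sample of the 3 groups of mice, with the mean and SD of each group. Pcdhga12 and Pcdha9 of untreated 5xFAD hippocampus lie below WT, Pcdhb16, Pcdhac2 and Pcdhb7 lie higher with light than without it in the hippocampus, and Pcdhga1 is lower in untreated 5xFAD than in WT hippocampus but higher in the meninges.

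Whether the genotype or the light acted differently in the 2 tissues was tested as an interaction. Of 53 members, 1 was called for the genotype, Pcdhga1, where 1.69% of 15132 genes were called. It was 2.30, 1.97, 2.56 and 2.15 FPKM in WT and 1.67, 1.64, 1.18 and 1.47 FPKM in untreated 5xFAD hippocampus, so that it was lower in all untreated mice there (log2 fold change -0.58 ± 0.23, adjusted p = 0.141 with edgeR), while it was higher in the meninges. The difference of the changes was 2.30 ± 0.56 on the log2 scale (adjusted p = 0.0363). It was no longer called with the replicate number as a block (2.41, adjusted p = 0.0525), nor without any 1 of 9 of the 15 samples (largest adjusted p = 0.138, without untreated 5xFAD meninges replicate 1). The others were WT hippocampus replicates 1, 3 and 4, untreated 5xFAD hippocampus replicates 1, 3 and 4, WT meninges replicate 2 and untreated 5xFAD meninges replicate 4, with adjusted p from 0.0515 to 0.0769. No member was called for the light by edgeR, where 0.971% of all genes were called, and DESeq2 called 3. At an unadjusted p below 0.05 there were 9 of 53 members for the light and 5 for the genotype, against 19.8% and 12.8% of all genes. Pcdhac2 came closest (-1.41 ± 0.35, adjusted p = 0.0518), with a higher value under light in the hippocampus and a lower one in the meninges. Pcdhb3 (-2.19 ± 0.68, adjusted p = 0.101) and Pcdha9 (-2.51 ± 0.89, adjusted p = 0.135) followed. Both had failed the level filter in the meninges, where Pcdhb3 was at most 0.93 FPKM and Pcdha9 at most 0.89 FPKM, so these sizes rest on very low values. DESeq2 called Pcdhac2 (-1.41, adjusted p = 0.00844), and edgeR called it without untreated 5xFAD meninges replicate 4 (-1.63, adjusted p = 0.0270).

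None of the non-clustered protocadherins, promoter choice regulators and intracellular partners was called by edgeR in the 9 comparisons of mice within a tissue. For the genotype in the hippocampus 2 of 10, 0 of 17 and 9 of 19 of them had an unadjusted p below 0.05, beside 24% of all genes, and for light-treated against untreated 5xFAD 6, 1 and 5 had, beside 18.3%. In light-treated against untreated 5xFAD meninges these counts were 2 of 8, 4 of 17 and 3 of 19, beside 12.7%. In the hippocampus, 5 of 10 tested non-clustered protocadherins had a higher value in untreated 5xFAD than in WT and 5 a lower value (median 0.11), and light-treated against untreated 5xFAD also gave 5 and 5 (median -0.06). The regulators gave 10 higher and 7 lower with the genotype (median 0.07) and 14 higher and 3 lower with light (median 0.09). The intracellular partners gave 8 higher and 11 lower with the genotype (median -0.16) and 16 higher and 3 lower with light (median 0.15). Among these lists the interaction of light and tissue called Trim28, a corepressor recruited by zinc finger proteins (-1.06 ± 0.26, adjusted p = 0.0494), and no other gene.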

How the data were processed

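The authors deposited RSEM expected counts and FPKM per gene for 32 Smart-seq2 libraries, in a table of both tissues and a table of LECs. Per the study's methods, reads were filtered with fastp and FPKM, scaled to transcript length and mapped fragments, was made by the authors with RSEM. The submitters' processing notes instead name Trimmomatic, HISAT2, StringTie, DESeq2 and mm10, and the annotation is not given in the sources used here. RSEM divides reads of shared exons by estimation, and no sample had molecular tags.

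Genes were joined by identifier. A gene labelled Pcdha11 in the LEC table (ENSMUSG00000007440) is called Pcdha10 here, as in the tissue table. After rounding, the expected counts went into edgeR 4.0.16 (R 4.3.3) with TMM scaling, genes of at least 1 FPKM in at least 3 samples, a quasi-likelihood test and Benjamini-Hochberg adjustment over all genes tested. Hippocampus, meninges and LECs were fitted apart, and a fit of 22 tissue samples gave the tissue differences and interactions. Calls needed an adjusted p below 0.05 and a 2-fold change. Genes named are the 3 smallest p-values among members in each comparison of mice and for the light interaction, the 3 largest called changes per cluster and direction between WT tissues, the C-types, the 2 highest members per cluster by level and the 4 adhesion genes of the study. The genes of the other lists named for the tissue difference, and Pcdhb1, Pcdha1, Pcdha8 and Pcdhb18, were chosen after their values were seen, as were members of LEC libraries. The members and lists were chosen with earlier results of these data known. Each sample is 1 mouse.

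Alternatives were median-of-ratios scaling, no filter, a mean of at least 5 FPKM, DESeq2 1.42.0, limma 3.58.1 on log2(FPKM + 1) and log2(FPKM + 0.1), no fold threshold, only the compared groups, a replicate block and leaving out each sample. No sequences are printed.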

Additional observations from a re-analysis of the deposited data

Results flagged for a closer look

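In groups of 4 samples, a sample was singled out when its distance from the nearest other exceeded the 95% limit of Dixon's test for the group's range. Of 130 groups tested 19 had such a sample. Chance alone singles out about 1 in 20 groups of normally distributed values, a rate that does not apply to the 7 LEC groups below, where the other libraries were at or near 0.

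In LEC libraries these were WT replicate 1 for Pcdhgc3 (38.3 FPKM), WT replicate 3 for Pcdhb17 (17.54 FPKM), Pcdhga12 (5.21 FPKM) and Pcdhgb7 (4.62 FPKM), and WT replicate 4 for Pcdhb20 (20.82 FPKM), Pcdhgb6 (12.6 FPKM) and Pcdhga6 (6.07 FPKM). The 3 other WT libraries were at 0 for each of these genes, except for 0.01 FPKM of Pcdhgb7.

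In the WT meninges, replicate 1 stood apart for Pcdhb9 (2.32 FPKM) and Pcdhga12 (1.56 FPKM), and replicate 3 for Pcdha12 (1.05 FPKM). All 3 values were above the rest of the group.

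In the WT hippocampus, replicate 3 was high for Pcdha5 (2.12 FPKM) and low for Pcdhb7 (3.49 FPKM) and for the gamma sum (134.86 FPKM, others 160.41 to 163.14), and replicate 4 was low for Pcdhb20 (1.65 FPKM). In untreated 5xFAD hippocampus, replicate 3 was low for Pcdha9 (1.17 FPKM) and Pcdhga8 (1.71 FPKM), and replicate 4 was high for Pcdhb12 (3.55 FPKM). In light-treated hippocampus, replicate 1 was low for Pcdhgc3 (13.65 FPKM) and replicate 2 high for Pcdha9 (2.74 FPKM).

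The genotype effect of Pcdhga1 differed between tissues by 2.30 on the log2 scale in the interaction test of edgeR (adjusted p = 0.0363). The call was lost with a replicate block (adjusted p = 0.0525) and without any 1 of 9 of the 15 samples.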

How the results depend on the processing

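The count of 0 called members in the hippocampus and the meninges held under every alternative run, and in LECs it held except that DESeq2 called 1 in light-treated 5xFAD against WT. The tissue difference of 38, 32 and 38 members in WT, untreated and light-treated mice was 19, 19 and 17 with limma on log2(FPKM + 1), which understates changes of low genes, and 2, 3 and 3 of 4 tested members at a mean of at least 5 FPKM. For the light effect between tissues DESeq2 called 3 members, and leaving out samples gave 0 to 2 (2 without untreated 5xFAD meninges replicate 4, 1 without light-treated meninges replicate 2). For the genotype effect the count was 0 at a mean of at least 5 FPKM and 0 to 1 without each sample. The gamma sum of WT meninges against hippocampus was -1.42 and -1.41 on the log2 scale from TMM and median-of-ratios CPM instead of -1.16. Without Pcdhgc4, a sum added after seeing the data, it was -1.68, and the gamma change was -0.32 (hippocampus, untreated 5xFAD against WT), -0.15 (hippocampus, light-treated against WT), -0.28 (meninges, untreated against WT) and 0.23 (meninges, light-treated against untreated). The cause was not tested.

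Leaving out each sample turned the sign of Pcdhgb6 in untreated 5xFAD against WT meninges (-0.75 to 0.056), of Pcdhgb5 in light-treated against WT meninges (-0.52 to 0.066) and of Pcdhgc4 in LECs (-5.31 to 0.23, -1.23 to 4.02 and -3.70 to 1.28 for untreated against WT, light-treated against untreated and light-treated against WT). None of these was called. Whether samples of different tissues with equal replicate number came from the same mouse is not given in the sources used here. Correlations of the deviations of same-numbered samples were between -0.31 and 0.24, which cannot settle it in groups this small. The main fits used no pairing. With a replicate block, the genotype effect between tissues had 0 called members (Pcdhga1 2.41, adjusted p = 0.0525), Pcdhgc3 was called between WT tissues (-1.05), and Pcdhb17 in LECs turned to 7.65 (untreated against WT) and -3.45 (light-treated against untreated). Beside the totals of counts given above, precision was limited by 3 or 4 samples per group, and in LECs by a biological coefficient of variation of 1.89.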
